A study of Mus musculus with 3 samples.

Results

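The nuclear-encoded respiratory chain genes are the genes of the cell nucleus that encode subunits of the mitochondrial complexes I to V, together with the complex I assembly factors of the Ndufaf family. Members were chosen by gene symbol (Nduf with a, b, c, s or v, Sdha to Sdhd, Uqcr, Cox4 to Cox8 and Atp5), and this family was selected with the signals of these same 3 arrays in view, so its counts are a description. The symbols matched 90 genes with 179 probe sets, out of 18193 genes with 34945 probe sets, and 84 of the 90 genes passed the expression filter, out of 9723 genes that passed in all. The study followed B16 cells, a mouse melanoma line, at 0, 2 and 4 h of doxorubicin at 1 µg/ml, with 1 Affymetrix Mouse430_2 array per time point. Doxorubicin, a chemotherapy drug of the anthracycline class, inserts into DNA and traps topoisomerase II on it. All 3 cultures were grown in DMEM with serum and antibiotics, and no untreated culture at 2 or 4 h was analysed here, so drug and time in culture cannot be told apart. With 3 arrays and no replicates, no test was made, and every ratio below compares single arrays whose number limits the precision. A signal is the deposited probe set intensity after scaling each array to the same trimmed mean, a gene passed the filter at a mean log2 signal of at least that of 200, and a log2 ratio compares 2 or 4 h with 0 h.

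The respiratory chain passes electrons from NADH through complex I, or from succinate through complex II, to ubiquinone, then through complex III and cytochrome c to complex IV, which reduces oxygen. Complexes I, III and IV pump protons across the inner mitochondrial membrane, and complex V, the ATP synthase, uses the returning protons to make ATP. Apart from complex II, whose subunits are all nuclear-encoded, each complex also holds subunits encoded by mitochondrial DNA, which are not analysed here. NRF1, GABPA (also called NRF2 in this field) and YY1 are transcription factors known to act on promoters of many of these genes.

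Promoter sequences are shown for the member with the highest ratio of 4 h over 0 h in each complex and for Ndufaf4, the lowest member, because these 6 genes mark the ends of the range described below. Each is the stretch from 250 bases before to 50 bases after the gene start in RefSeq (GRCm38.p6), read 5′ to 3′ on the gene's strand, and capitals mark matches on either strand to GCGCA, any base and GCGC (NRF1), to CCGGAAG (GABPA) or to AAGATGG (YY1). No pair of capitals overlaps in these stretches. The windows are chr15:82354242-82354541 for Ndufa6, chr9:50603800-50604099 for Sdhd, chr4:116075021-116075320 for Uqcrh, chr6:11907401-11907700 for Ndufa4 and chr19:47090598-47090897 for Atp5md, all on the minus strand, and chr4:24897833-24898132 on the plus strand for Ndufaf4.
Ndufa6: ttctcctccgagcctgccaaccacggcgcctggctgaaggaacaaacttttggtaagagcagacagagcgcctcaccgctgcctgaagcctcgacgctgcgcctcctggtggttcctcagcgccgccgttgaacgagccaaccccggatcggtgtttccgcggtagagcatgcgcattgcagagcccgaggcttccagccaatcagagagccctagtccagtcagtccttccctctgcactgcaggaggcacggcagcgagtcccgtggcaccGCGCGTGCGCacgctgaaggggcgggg
Sdhd: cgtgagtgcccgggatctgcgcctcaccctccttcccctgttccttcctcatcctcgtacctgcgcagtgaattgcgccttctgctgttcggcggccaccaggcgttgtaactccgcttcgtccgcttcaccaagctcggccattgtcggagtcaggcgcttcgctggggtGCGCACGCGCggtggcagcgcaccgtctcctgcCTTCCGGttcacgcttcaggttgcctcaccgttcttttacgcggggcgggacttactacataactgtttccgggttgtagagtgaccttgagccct
Uqcrh: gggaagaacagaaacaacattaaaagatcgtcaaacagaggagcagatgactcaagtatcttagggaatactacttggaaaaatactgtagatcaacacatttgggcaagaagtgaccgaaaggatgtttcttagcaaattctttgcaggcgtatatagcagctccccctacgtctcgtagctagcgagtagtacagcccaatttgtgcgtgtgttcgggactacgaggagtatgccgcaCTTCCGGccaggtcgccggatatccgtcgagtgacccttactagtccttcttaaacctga
Ndufa4: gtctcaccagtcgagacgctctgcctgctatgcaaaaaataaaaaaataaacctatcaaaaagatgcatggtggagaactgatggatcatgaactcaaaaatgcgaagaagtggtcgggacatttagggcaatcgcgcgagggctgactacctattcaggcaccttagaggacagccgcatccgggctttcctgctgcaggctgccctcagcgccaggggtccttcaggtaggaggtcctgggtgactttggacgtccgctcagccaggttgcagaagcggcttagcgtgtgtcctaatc
Atp5md: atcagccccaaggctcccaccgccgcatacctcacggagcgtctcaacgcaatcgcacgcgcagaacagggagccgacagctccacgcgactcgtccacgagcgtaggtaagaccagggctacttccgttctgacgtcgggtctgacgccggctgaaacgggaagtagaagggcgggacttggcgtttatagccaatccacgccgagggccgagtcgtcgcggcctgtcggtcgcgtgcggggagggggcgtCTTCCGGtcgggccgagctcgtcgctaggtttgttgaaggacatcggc
Ndufaf4: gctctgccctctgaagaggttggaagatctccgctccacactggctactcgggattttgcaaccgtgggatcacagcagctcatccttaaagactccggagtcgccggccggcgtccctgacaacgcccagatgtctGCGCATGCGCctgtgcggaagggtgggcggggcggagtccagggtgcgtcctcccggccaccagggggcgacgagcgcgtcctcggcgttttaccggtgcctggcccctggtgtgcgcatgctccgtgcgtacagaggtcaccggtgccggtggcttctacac

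The NRF1 letters were found in Ndufa6, Sdhd and Ndufaf4, the GABPA letters in Sdhd, Uqcrh and Atp5md, and none of the 3 motifs in Ndufa4. Counted from the gene start, the NRF1 match began at 24 in Ndufa6, at -79 in Sdhd and at -113 in Ndufaf4, and the GABPA match at -46 in Sdhd, at -10 in Uqcrh and at 3 in Atp5md. Over the 73 windows of the 68 members in the promoter table, 17 (23.3%) held the NRF1 letters, against 10.3% of the 10167 windows of all genes that passed the filter and 4.60% of all 32851 windows. The GABPA letters were in 26.0% of member windows, 18.2% of windows of genes that passed and 8.86% of all windows. The YY1 letters were in 13.7%, 7.10% and 6.34%. The median log2 ratio at 4 h was 0.46 in the 16 members with the NRF1 letters and 0.52 in the 52 without. It was 0.65 with and 0.48 without the GABPA letters (19 and 49 members), and 0.64 with and 0.49 without the YY1 letters (10 and 58 members). No test of these pairs of medians was made, and a match is a description of the letters only.

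Cell identity was read from marker genes, because a description field names bone marrow-derived macrophages. Of 7 pigment cell markers, 7, 6 and 6 had a signal of at least 200 at 0, 2 and 4 h, with summed signals of 157032, 162487 and 168081. The sum was mostly Tyrp1 (42568, 44083 and 47128), Pmel (35665, 46371 and 45805), Dct (35050, 39355 and 42058) and Mlana (25242, 27837 and 31317), genes of pigment granule proteins and enzymes. The transcription factor genes did not follow it, since Mitf had signals of 6576, 2031 and 739, 8.89-fold lower at 4 h, and Sox10 11710, 2640 and 892, 13.1-fold lower, while the tyrosinase gene Tyr was dim (221, 170 and 142). Of 6 macrophage markers, 5, 4 and 4 reached 200, with summed signals of 3314, 4410 and 4963 that were mostly Cd68 (1884, 3044 and 3699). The other macrophage markers did not follow that sum, with 522, 424 and 376 for Csf1r, 215, 268 and 151 for Cd14, 302, 197 and 301 for Adgre1 and 372, 414 and 398 for Lyz2, and the integrin Itgam was under the floor of 100 on each array. Of 4 fibroblast markers 3 reached 200 at each time, with sums of 3334, 3631 and 3687. The part of other cells in the ratios below was not tested, and fewer cells of a type and less RNA per cell cannot be told apart in such samples. By the file headers, the 4 h array had a later hybridization time than the arrays at 0 and 2 h, and it ran on another fluidics module, so its run and its time point cannot be told apart. With equal trimmed means, a ratio of 2 h over 0 h is not computed from that array. The filter, the choice of probe set and the signal bins do use it, through the mean over the 3 arrays.

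Respiratory chain transcripts stood mostly slightly above their 0 h signal at both times, although 19 and 18 of 84 lay below it at 4 h in 2 other scalings of the arrays given in the next paragraph. In the same 2 scalings only 64 and 63 of 84 were above it at 2 h. With equal trimmed means, 79 of the 84 members had a log2 ratio above 0 at 2 h, against 49.0% of all genes. At 4 h 81 of 84 did, against 46.1%. The members' median log2 ratio was 0.34 at 2 h, against -0.01 for all genes, and 0.49 at 4 h, against -0.07. The differences were small for single genes. A ratio of at least 1.5-fold higher (log2 0.58) was found in 10 members at 2 h, against 6.62% of all genes, and in 31 members (36.9%) at 4 h, against 11.5%. No member was at least 1.5-fold lower at 2 h (14.9% of all genes) and 1 member, Ndufaf4, was at 4 h (25.5% of all genes). Only 1 member was at least 2-fold higher at 2 h, the assembly factor Ndufaf2 (1.41% of all genes), and only 1 at 4 h, the ATP synthase subunit gene Atp5md (2.32%). At neither time was a member at least 2-fold lower, whereas 5.69% of all genes were at 2 h and 14.4% at 4 h. For ratios above 0 and for lower genes, bright genes as a whole were nearer to the members, as given in the next paragraph.

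**Figure D1:**
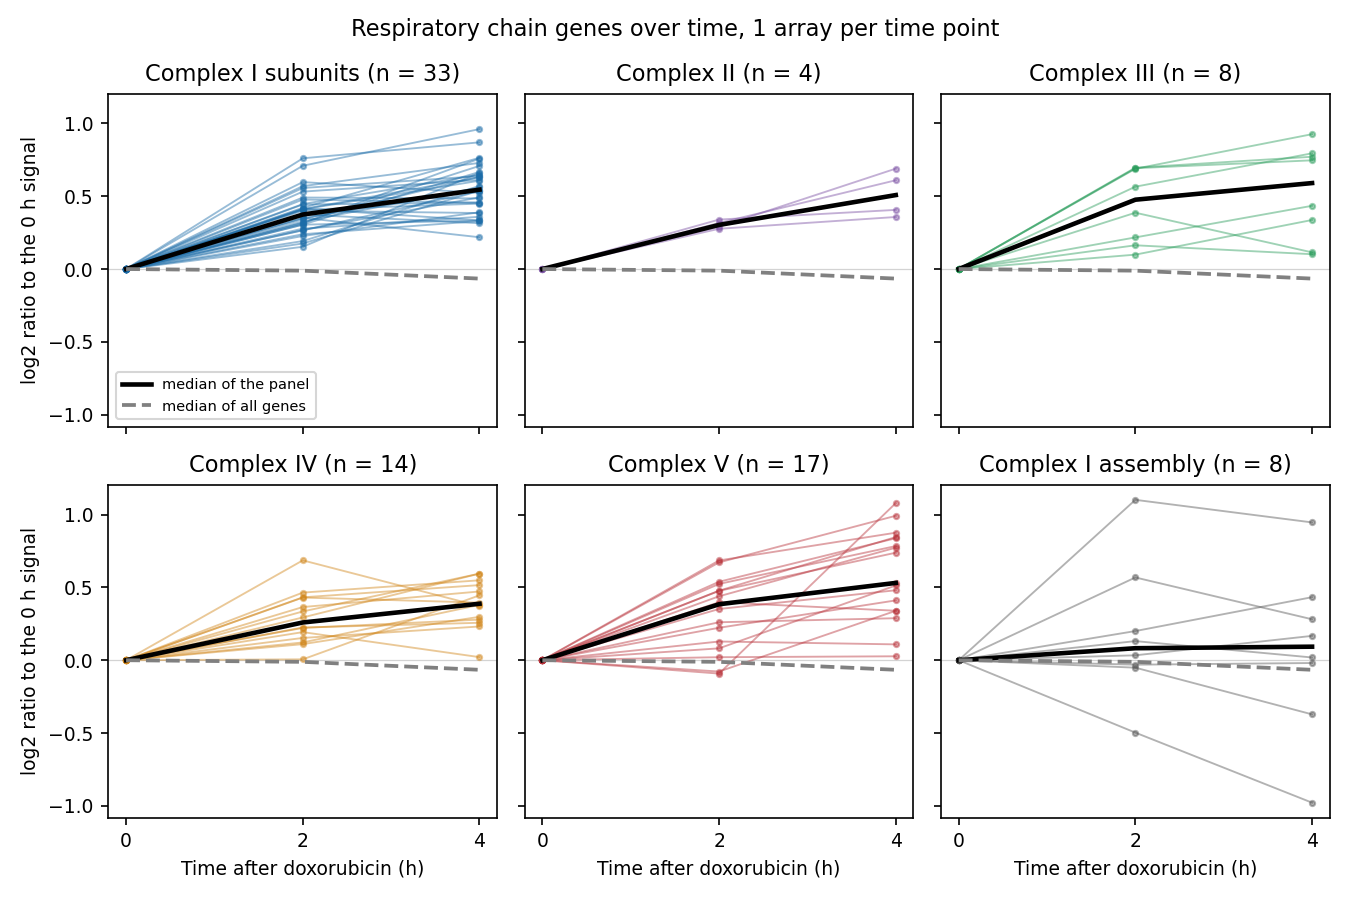
Log2 ratio to the 0 h signal (vertical axis) at 0, 2 and 4 h after doxorubicin (horizontal axis, h) for the 84 members, 1 thin line per gene, in a panel per complex. The thick black line is the median of the panel and the dashed grey line the median of all 9723 genes; the panel medians of complexes I to V lie above the dashed line at both times, while the assembly factors spread from -0.98 to 0.95 at 4 h.

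Signal and scaling bear on how far these counts go. Members were bright, with 72 of the 84 in the brightest of 4 equal bins of genes by mean signal, and bright genes as a whole had higher ratios on these arrays. The 2431 genes of that bin had a median log2 ratio of 0.19 at 2 h and 0.28 at 4 h, and 18.3% of them were at least 1.5-fold higher at 4 h. The 72 members in it had medians of 0.35 and 0.53, and 29 of them (40.3%) were at least 1.5-fold higher at 4 h. The median of all 84 members at 4 h stayed above 0 in each of 4 scalings, at 0.49 with equal trimmed means, 0.80 with equal medians, 0.20 with quantile normalization and 0.17 with scaling to the spike-in controls (18 probe sets). The direction of single members did not always hold, since 3 of 84 were below 0 with equal trimmed means, 2 with equal medians, 19 with quantile normalization and 18 with spike-in scaling. Those below 0 with quantile normalization were 3 of 33 in complex I, 1 of 4 in complex II, 3 of 8 in complex III, 4 of 14 in complex IV, 5 of 17 in complex V and 3 of 8 Ndufaf genes. At 2 h, members above 0 numbered 79 with equal trimmed means and 83 with equal medians. They numbered 64 with quantile normalization and 63 with spike-in scaling. The count of members at least 1.5-fold higher at 4 h was 71 with equal medians (84.5% of members, against 29.0% of all genes) and 5 with spike-in scaling (5.95%, against 3.19%). With quantile normalization it was 11 (13.1%), and 1557 of 9736 genes were as high, so the members' share was then no larger than that of all genes. Ratios are given below as scaled to equal trimmed means, and differences between members are the same with equal medians or spike-in scaling, which move every log2 ratio by 1 amount.

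**Figure D2:**
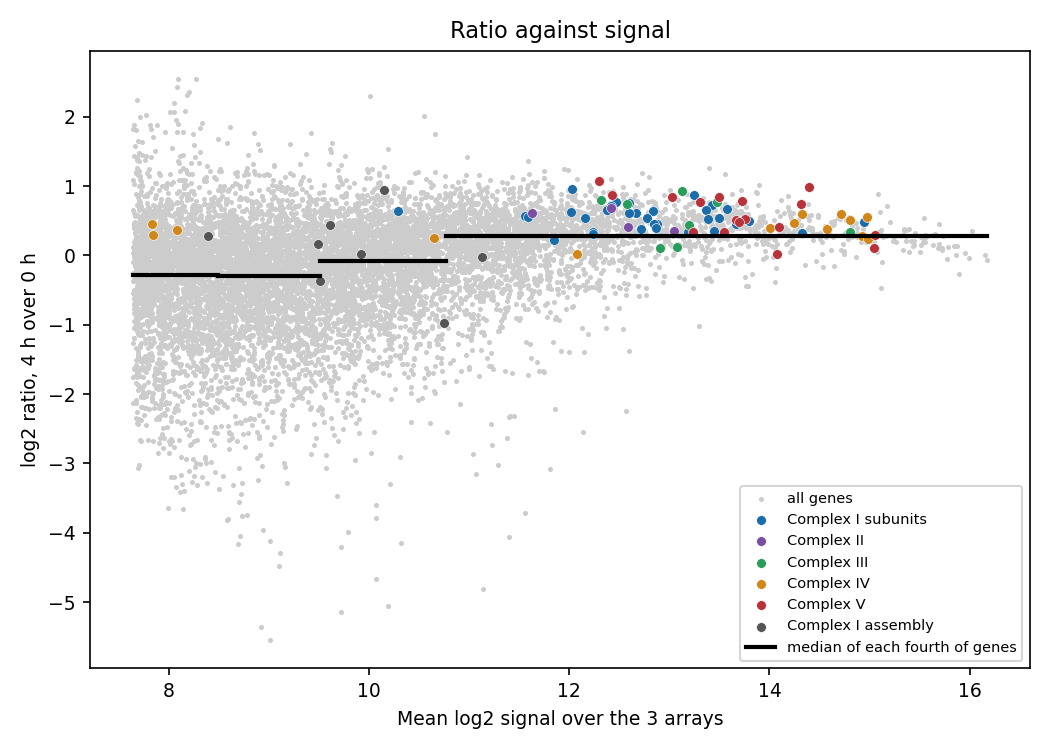
Log2 ratio of 4 h over 0 h (vertical axis) against the mean log2 signal over the 3 arrays (horizontal axis), with all 9723 genes in grey and the members coloured by complex. The black bars are the medians of 4 equal bins of genes by signal, and most members lie in the brightest bin, above its bar at 0.28.

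Complex I, the NADH dehydrogenase, was represented by 33 of 34 subunit genes and had a median log2 ratio of 0.37 at 2 h and 0.55 at 4 h. In this scaling all 33 were above 0 at both times (2 of 33 were below 0 at 4 h with spike-in scaling), from 0.22 to 0.96 at 4 h. At 4 h 14 (42.4%) were at least 1.5-fold higher, against 11.5% of all genes and 18.3% of the brightest bin. The 6 core subunits measured here carry the flavin, the iron-sulfur clusters or the contact to the quinone site. Ndufs1, the subunit with the most iron-sulfur clusters, had signals of 2530, 2891 and 3759 at 0, 2 and 4 h (log2 ratio 0.19 at 2 h and 0.57 at 4 h). Ndufv1, which binds NADH and the flavin, had signals of 3270, 4350 and 5063, a log2 ratio of 0.63 ± 0.09 at 4 h (SD over 3 probe sets). Its partner Ndufv2 had 8288, 12540 and 11913, at 0.52 ± 0.33 (SD over 3 probe sets). These 3 genes were higher at both times than at 0 h. Ndufv2 was highest at 2 h on its brightest probe set only. Its other passing probe sets were highest at 4 h, with 6828, 8883 and 10036 on 1 and 3593, 4500 and 7722 on the other.

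Ndufs3, a subunit of the arm that reaches the quinone site, had signals of 4161, 5140 and 5244 (0.33 at 4 h). Ndufs8, an iron-sulfur subunit, had 7817, 10427 and 9853 (0.33 ± 0.31, SD over 6 probe sets), and Ndufs7, which carries the last cluster before ubiquinone, had 3226, 4118 and 3753 (0.22 ± 0.14, SD over 2 probe sets). Ndufs7 was the lowest complex I subunit at 4 h, and it and Ndufs8 were nearer to 0 h at 4 h than at 2 h on the probe sets read. The Ndufs8 probe sets disagreed on this step, with log2 ratios of 4 h over 2 h from -0.56 to 0.12. The 27 accessory subunits, which surround the core, had median log2 ratios of 0.37 at 2 h and 0.56 at 4 h. At 4 h 13 of them (48.1%) were at least 1.5-fold higher, against 11.5% of all genes. The 6 core subunits had medians of 0.38 and 0.43, and 1 of them (16.7%), Ndufv1, was at least 1.5-fold higher at 4 h. The difference between these medians at 4 h was 0.13 and was not tested.

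Among accessory subunits, Ndufa6, an LYR-motif protein, had signals of 2829, 4627 and 5510 and was 1.95-fold higher at 4 h. Ndufb2, a small membrane arm subunit, had 6661, 11285 and 12177, 1.83-fold higher (log2 0.87 ± 0.15, SD over 2 probe sets). Both were also at least 1.5-fold higher at 2 h. Next at 4 h were Ndufa5 (0.76), Ndufc1 (0.76), Ndufa9 (0.73), Ndufb3 (0.71), Ndufa1 (0.67), Ndufa2 (0.66), Ndufb7 (0.65), Ndufa13 (0.64), Ndufb1 (0.63), Ndufb5 (0.61) and Ndufb10 (0.61). Ndufa10 was the lowest accessory subunit, with signals of 4123, 5344 and 5129 (0.32), beside Ndufa12 with 18010, 21259 and 22635 (0.33 ± 0.21, SD over 3 probe sets). Ndufb9, a membrane arm subunit, had 25101, 35285 and 35140 (0.49 ± 0.12, SD over 2 probe sets). Ndufab1, the mitochondrial acyl carrier protein, which also serves fatty acid and lipoate synthesis, had 5986, 8140 and 8211 (0.46 ± 0.24, SD over 2 probe sets).

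The 8 Ndufaf genes, whose products help to build complex I and are not part of the finished enzyme, were spread more widely than the subunits. Their median log2 ratio was 0.08 at 2 h and 0.09 at 4 h, and at 4 h they ran from -0.98 to 0.95. Ndufaf4 was the lowest of all members, with signals of 2427, 1719 and 1231, 1.97-fold lower at 4 h (log2 -0.98 ± 0.06, SD over 2 probe sets). Its ratio stayed below 0 in all 4 scalings. Ndufaf1 had signals of 807, 779 and 624 (-0.05 and -0.37). In the other direction, Ndufaf2 had signals of 708, 1519 and 1364 on its single passing probe set, 2.15-fold higher at 2 h and 1.93-fold higher at 4 h.

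At 4 h the remaining assembly factors lay between -0.02 and 0.43. Ndufaf5 had signals of 677, 778 and 914 (0.43 at 4 h) and Ndufaf6 had 276, 410 and 336 (0.28). Ndufaf3 was at 0.17, Ndufaf7 at 0.02 and Ndufaf8 at -0.02 ± 0.10 (SD over 2 probe sets). Of the 8 Ndufaf genes 7 lay outside the brightest of the 4 signal bins, and with quantile normalization their median lay above that of complex I, by 0.09. The lower position of the group, though not that of Ndufaf4, therefore depends on the scaling.

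**Figure D3:**
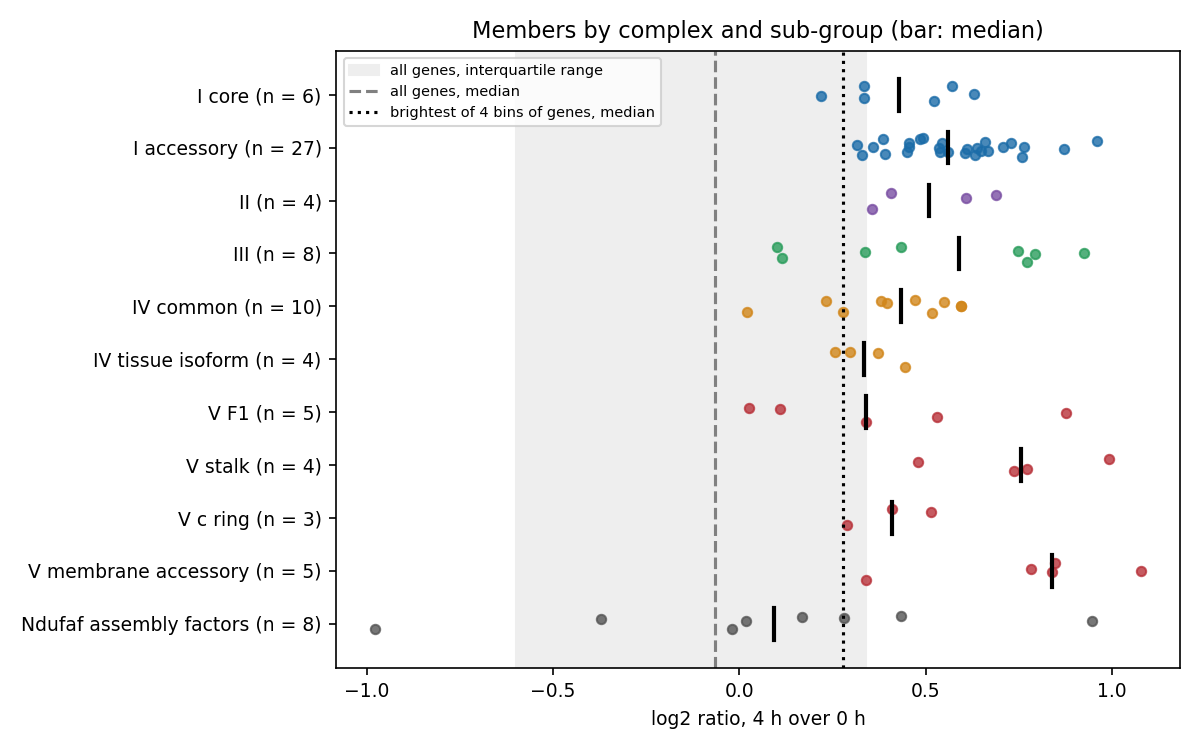
Log2 ratio of 4 h over 0 h (horizontal axis) for each of the 84 members, 1 point per gene, in rows by complex and sub-group, with a black bar at each median. The grey band and dashed line are the interquartile range and the median of all genes and the dotted line the median of the brightest bin of genes; the membrane accessory and stalk subunits of complex V have the highest medians in this scaling, 0.84 and 0.76, and the assembly factors the lowest, 0.09.

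Complex II, the succinate dehydrogenase that also belongs to the tricarboxylic acid cycle, formed a narrow group. Sdha, the flavoprotein, had signals of 5178, 6554 and 6863 (0.34 and 0.41 ± 0.07, SD over 2 probe sets). Sdhb, the iron-sulfur subunit, had 7318, 8866 and 9377 (0.28 and 0.36). Both genes of the catalytic head were therefore higher at 2 h and at 4 h by less than 1.5-fold. Sdhc, a membrane anchor, had 2560, 3188 and 3907 (0.32 and 0.61), but its other passing probe set had 3077, 3057 and 3065, a log2 ratio of -0.01 at both times. Sdhd, the other anchor, had 4364, 5335 and 7039 (0.29 and 0.69 ± 0.02, SD over 2 probe sets). The median of the 4 genes was 0.30 at 2 h and 0.51 at 4 h.

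Complex III, the cytochrome bc1 complex, split by subunit. Uqcrc1, a core protein, had signals of 7222, 8086 and 7750 (0.16 and 0.10), and Uqcrfs1, the Rieske iron-sulfur protein, had 7673, 10033 and 8307 (0.39 and 0.11). Uqcrc2, the other core protein, was higher, with 4380, 7080 and 7351 (0.69 and 0.75 ± 0.23, SD over 2 probe sets). Thus 1 core protein and the Rieske protein were near their 0 h signal at 4 h and the other core protein was not.

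The small subunits of complex III held the highest ratios. Uqcrh, the hinge protein, had 6159, 9930 and 11707, 1.90-fold higher at 4 h (0.93 ± 0.17, SD over 2 probe sets). Uqcr11 had 3724, 5512 and 6461 (0.80), and Uqcr10 had 8088, 9403 and 10930 (0.43 ± 0.20, SD over 3 probe sets). Uqcrq, a small subunit of the membrane part, had 8133, 13179 and 13884 (0.77 ± 0.63, SD over 3 probe sets). Its dimmer probe sets disagreed, with ratios of -0.48 and 0.32 from signals of 336 and 176 at 0 h, and -0.48 stands for the gene when probe sets with suffixed names are left out. Uqcrb, which binds ubiquinone, had 25868, 27704 and 32674 (0.34 ± 0.62, SD over 2 probe sets), while its dimmer probe set had 2746, 4677 and 6384 (1.22). Over the 8 genes the median was 0.48 at 2 h and 0.59 at 4 h. A ratio of 1.5-fold or more was found in 3 of them at 2 h (6.62% of all genes) and in 4 at 4 h (11.5%).

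Complex IV, the cytochrome c oxidase, had the lowest subunit median of the 5 complexes, 0.26 at 2 h and 0.39 at 4 h over 14 genes, with Ndufa4 and Ndufa4l2 counted here because the Ndufa4 protein belongs to complex IV despite its name. With quantile normalization the 4 h median was 0.17 for complex IV and lower, 0.10, for complex V. In the main scaling all 14 were above 0 at both times, but 5 of 14 were below 0 at 4 h with spike-in scaling. At 4 h 2 (14.3%) were at least 1.5-fold higher, near the 11.5% of all genes and below the 18.3% of the brightest bin. Ndufa4 had signals of 16690, 20461 and 25215 (0.60 at 4 h), and Cox6c had 21769, 27460 and 32881 (0.60 ± 0.37, SD over 2 probe sets). Cox4i1, a regulatory subunit that binds ATP, had 13623, 18361 and 17927 (0.43 and 0.40). Cox7a2 had 25452, 35124 and 37242 (0.55 ± 0.07, SD over 2 probe sets) and Cox6b1 22971, 30993 and 32853 (0.52 ± 0.02, SD over 2 probe sets). Cox5a had 15981, 20586 and 22171 (0.47 ± 0.42, SD over 3 probe sets). These subunits were all higher at 2 h and at 4 h than at 0 h.

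Smaller ratios were found for Cox8a, with 21691, 23606 and 28232 (0.38 ± 0.02, SD over 2 probe sets), and Cox6a1, with 27644, 32241 and 33545 (0.28 ± 0.18, SD over 2 probe sets). Cox5b, a zinc-binding subunit, had 29767, 33099 and 34958 (0.23 ± 0.25, SD over 5 probe sets). This brightest probe set was its lowest at 4 h, and the others were at 0.42, 0.48, 0.56 and, from a signal of 260 at 0 h, 0.91. On the probe set read, Cox7a2l, which tethers complexes III and IV into supercomplexes, was the lowest. Its signals there were 4116, 4706 and 4177 (0.02 ± 0.20, SD over 3 probe sets). Its other passing probe sets were higher at 4 h, at 0.39 and 0.35, from signals of 3286 and 3131 at 0 h. The order of these genes within complex IV lies, for most neighbours, inside the probe-level spread, the pooled SD of log2 ratios between probe sets of a member (0.25 at 4 h, 44 genes).

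Several complex IV subunits have isoforms known from muscle, lung or testis, and of 8 such genes 4 passed the filter. Cox4i2, the isoform of lung, had signals of 209, 226 and 257, Cox6a2, the heart and muscle isoform, 212, 341 and 274, and Ndufa4l2, a hypoxia-inducible relative of Ndufa4, 205, 206 and 279. These 3 passed the filter by a small margin. Cox8c, the testis isoform, had 1437, 1679 and 1717, and its other passing probe set 590, 251 and 686, so that its probe sets disagreed at 2 h with log2 ratios of 0.22 and -1.24. The 6 members that did not pass were Cox7a1, Cox6b2, Cox7b2 and Cox8b, which are isoforms of muscle or testis, and Cox7c and Ndufb4. Their signals lay between 4.71 and 177 on all arrays, and Ndufb4 with a highest signal of 177 was the nearest to the filter. For Cox7c and Ndufb4, which encode common subunits, only probe sets with 1 symbol were used, and these were dim.

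Complex V, the ATP synthase, had all 17 genes above the filter, a median log2 ratio of 0.38 at 2 h and 0.53 at 4 h, and the widest range of subunits, from 0.03 to 1.08 at 4 h. The 5 genes of the catalytic head F1 ran from 0.03 to 0.88 at 4 h. Atp5a1, the alpha subunit, had signals of 17025, 17272 and 17347 (0.02 and 0.03 ± 0.09, SD over 3 probe sets). Atp5b, the catalytic beta subunit, had 31968, 34949 and 34474 (0.13 and 0.11). On the probe sets read, the genes of the alternating alpha and beta subunits thus stood within 0.13 of their 0 h value at both times in this scaling. With quantile normalization they were at -0.38 and -0.23 at 4 h. Other passing Atp5a1 probe sets were at 0.22 and 0.20 (signal 6802 at 0 h) and at 0.00 and 0.12 (signal 280).

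The other F1 genes were higher. Atp5c1, the gamma subunit of the central shaft, had 11202, 14625 and 16188 (0.53 at 4 h), Atp5d, the delta subunit, 10060, 13257 and 12734 (0.34 ± 0.38, SD over 2 probe sets, the dimmer at -0.20), and Atp5e, the epsilon subunit, 3841, 6177 and 7050, 1.84-fold higher (0.88). The 4 genes of the peripheral stalk, which holds the head in place, were at 0.99 ± 0.30 for Atp5h (14664, 23366 and 29176), 0.77 ± 0.02 for Atp5pb (7665, 10395 and 13101), 0.74 for Atp5j (15386, 21410 and 25674, 1 probe set) and 0.48 ± 0.34 for Atp5o (10965, 13996 and 15301), with SDs over 2 probe sets. Of these 4, 3 were at least 1.5-fold higher at 4 h, against 11.5% of all genes.

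The proton-turned c ring is encoded by 3 genes, known to give the same mature protein from different precursors. Atp5g1 had signals of 11307, 11966 and 16143 (0.08 and 0.51), Atp5g2 15118, 17644 and 20101 (0.22 and 0.41), and Atp5g3 30063, 36022 and 36722 (0.26 and 0.29). Their ratios to 0 h lay within the probe-level spread of each other at each time. The step from 2 h to 4 h was 0.43 for Atp5g1 and 0.03 for Atp5g3, a wider gap, on 1 probe set each.

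The small membrane accessory subunits, of which several serve dimer formation, had the highest median of any sub-group, 0.84 at 4 h, whereas with quantile normalization it was 0.43 and the 4 tissue isoforms of complex IV were higher, at 0.66. Atp5md, known as DAPIT, had signals of 4007, 3760 and 8468 on 1 probe set. It was near its 0 h signal at 2 h (-0.09) and 2.11-fold higher at 4 h (1.08). It was also the only member at least 1.5-fold higher at 4 h than at 2 h (5.34% of all genes), at 2.25-fold (0.843% of all genes were at least 2-fold higher). Atp5l, subunit g, had 6169, 8590 and 11091 (0.85), Atp5k, subunit e, 8435, 12258 and 15082 (0.84 ± 0.20, SD over 3 probe sets) and Atp5j2, subunit f, 9988, 14364 and 17202 (0.78 ± 0.07, SD over 3 probe sets). Atp5mpl had 9082, 8606 and 11493 (-0.08 and 0.34), so it and Atp5md were the complex V genes below 0 at 2 h. The median of this sub-group exceeded that of F1 by 0.50 at 4 h, and by 0.51 with quantile normalization. The sub-groups of complex V were defined after the values were seen.

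At the median, most of the difference from 0 h was present by 2 h. From 2 h to 4 h the median log2 ratio of the 84 members was 0.14, against -0.06 for all genes, and 65 of them were above 0 (43.8% of all genes). No member was at least 1.5-fold lower at 4 h than at 2 h, against 15.8% of all genes, and 5.41% of all genes were 2-fold or more lower over this step. By complex the medians for this step were 0.16, 0.19, 0.15, 0.08 and 0.26 for complexes I to V, and -0.13 for the Ndufaf genes. The members furthest below their 2 h signal were the assembly factors Ndufaf4 (-0.48) and Ndufaf1 (-0.32), then Cox6a2 (-0.31), Ndufaf6 (-0.29) and Uqcrfs1 (-0.27). The ratios of 2 h and 4 h over 0 h share the 0 h array.

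Different probe sets of a member mostly gave the same direction. Of the 44 members with at least 2 passing probe sets, 39 had all of them above 0 at 2 h and 39 at 4 h, and of the 150 passing probe sets 141 were above 0 at 2 h and 143 at 4 h. The size differed with signal in some genes. In 33 members whose dimmest passing probe set had a 0 h signal of at least 1000, that probe set had a higher ratio at 4 h than the brightest in 20, with medians of 0.65 and 0.52. Cox5a (1.07 against 0.47), Cox6c (1.12 against 0.60), Ndufv2 (1.10 against 0.52) and Uqcrb (1.22 against 0.34) showed the widest gaps in that direction. Sdhc (-0.01 against 0.61) and Atp5d (-0.20 against 0.34) had the widest gaps with the dimmest probe set lower. The pooled SD between probe sets of a member was 0.24 at 2 h and 0.25 at 4 h, against 0.40 and 0.48 over all genes. Spread between cultures or between arrays is not part of this SD.

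Other genes that serve the chain were read from lists outside the symbol rule. Of the assembly factors outside the symbol rule, 34 of 36 passed, with a median log2 ratio of -0.01 at 2 h and 0.21 at 4 h, and at 4 h 5 of the 34 were at least 1.5-fold higher, against 11.5% of all genes, and 7 at least 1.5-fold lower, against 25.5%. Timmdc1, a complex I assembly factor, had signals of 397, 788 and 812, 2.04-fold higher at 4 h, and Cox17, a copper chaperone of complex IV, 7186, 9724 and 11954 (0.73). Sco2, which delivers copper to complex IV, had 1346, 571 and 63.1, at least 13.5-fold lower at 4 h because the last signal lies under the floor. Cox11, also needed for the copper sites, had 921, 511 and 212, 4.34-fold lower. Of these copper factors, Cox17 stood near the top of the list and Sco2 and Cox11 at its lower end. Sco1 was also lower (-0.98), while Cox19 (-0.05), Coa6 (-0.16) and Cmc1 (0.21) lay between. Cycs, cytochrome c, had 18368, 23792 and 27588 (0.37 and 0.59), and Cyc1, the cytochrome c1 of complex III, 14987, 17867 and 14477 (0.25 and -0.05).

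Of 14 regulators of mitochondrial genes, 13 passed, and at 4 h 6 lay 1.5-fold or more under their 0 h signal (25.5% of all genes did) and none as far above it (11.5%), with a median of -0.28 at 2 h and -0.55 at 4 h. This median stayed below 0 in all 4 scalings. Pprc1, a coactivator of the PGC-1 family, had signals of 1745, 924 and 311, 5.61-fold lower at 4 h. Gabpb1, the partner of GABPA, was at -1.48, Mterf3 at -1.30, Tfb1m at -1.07, Yy1 at -0.94 and Nrf1 at -0.60. Gabpa itself was at 0.34, and Lrpprc, which stabilises mitochondrial mRNAs, at 0.40. Ppargc1b, another coactivator of the PGC-1 family, missed the filter with 687, 86.6 and 49.4, at least 6.87-fold lower at both times. Of the tricarboxylic acid cycle enzymes, 12 of 12 passed, 11 were above 0 at 4 h, 3 of them by at least 1.5-fold (11.5% of all genes), and none was 1.5-fold lower (25.5%). Their median was 0.25 at 2 h and 0.49 at 4 h, and 0.17 to 0.79 at 4 h over the 4 scalings. Ogdh (0.62), Suclg1 (0.61) and the citrate synthase gene Cs (0.60) were the highest, and Dlst (-0.00) and Idh3a (0.17) the lowest.

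**Figure D4:**
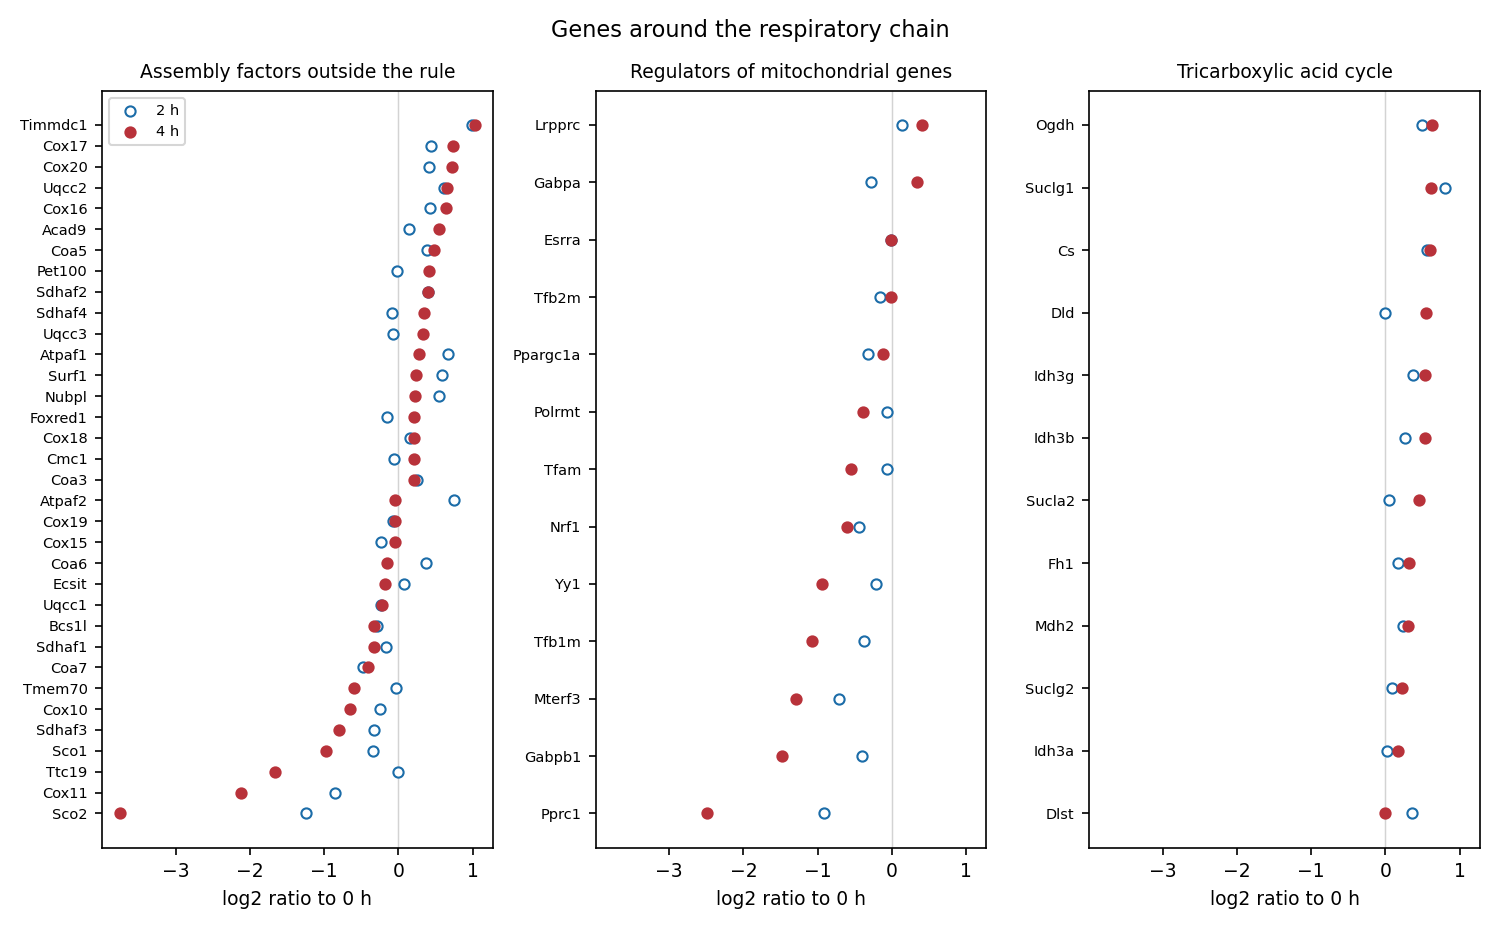
Log2 ratio to the 0 h signal (horizontal axis) at 2 h (open circles) and 4 h (filled circles) for each passing gene (rows) among assembly factors outside the symbol rule, regulators of mitochondrial genes and tricarboxylic acid cycle enzymes. The 4 h value of Sco2 is a bound set by the signal floor, and of 13 regulators only Lrpprc and Gabpa lie above 0 at 4 h.

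**Figure D5:**
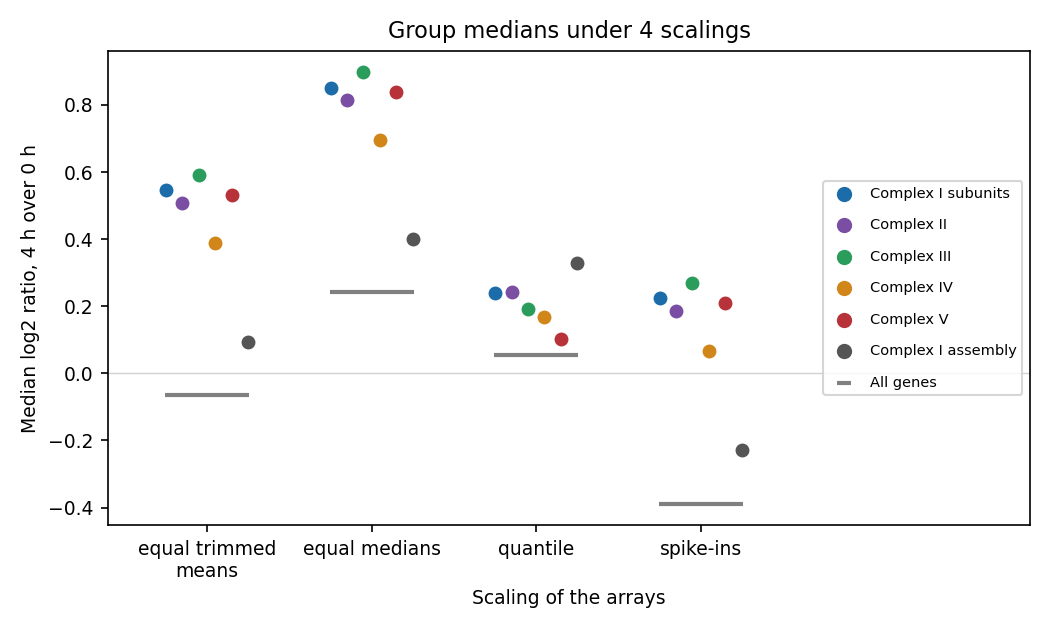
Median log2 ratio of 4 h over 0 h (vertical axis) for the subunits of complexes I to V and the Ndufaf assembly factors (points) and for all genes (grey bars) under 4 scalings of the arrays (horizontal axis). The 5 complex medians are above 0 and above the bar of all genes in each scaling, from 0.07 for complex IV with spike-in scaling to 0.90 for complex III with equal medians, while the assembly factors are at -0.23 with spike-in scaling.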

How the data were processed

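The authors deposited signal intensities per probe set on a linear scale, with 1 Mouse430_2 array per time point per the file headers. GCOS 1.4 is named in the submitters' processing notes, and no source used here states the signal algorithm. The deposited intensities had a 2% trimmed mean of 150.0 on every array. Here each array was multiplied to bring that mean to 500, a floor of 100 was applied, and values were put on the log2 scale. Probe sets with a mean log2 signal of at least that of 200 were kept. Of 45101 probe sets, 34958 carry 1 symbol in the platform annotation, 13 controls included, and 932 carry several. Another 9211 are not in it, and all 64 controls were left out. For 34754 the symbol was updated by Entrez gene ID to RefSeq (GRCm38.p6). A gene was read from its kept probe set with the highest mean. An SD after ± is that of the log2 ratios of all kept probe sets of the gene, placed beside the ratio of the probe set read, which is not their mean.

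Time points come from the titles. The source and description fields name an "ET" treatment that they do not expand. Ratios, counts past 1.5-fold and 2-fold, and medians were computed without a test, and the counting was tested on simulated data. Any member could be named, with the highest, lowest, core and isoform genes in full. Members, lists and motifs were chosen with earlier results of these data known, and the sub-groups of complexes IV and V and the signal bins after their values were seen. Ratios of single genes are read against the probe-level spread, the pooled SD between probe sets of a member. Alternatives were the deposited values under the same floor and filter, equal medians, quantile normalization, spike-in scaling, floors of 50 and 200, an offset of 50, no filter, a filter of 400, means over probe sets, suffixed probe sets left out, platform symbols, and Ndufa4 and Ndufa4l2 in complex I. The software was Python 3.11.15 with numpy 2.4.6 and pandas 2.3.3 for the values, scipy 1.17.1 for rank correlation, and matplotlib 3.10.9 for figures.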

Additional observations from a re-analysis of the deposited data

How the results depend on the processing

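Scaling was the choice that moved most results. With equal medians, the members at least 1.5-fold higher numbered 26 of 84 at 2 h (13.4% of all genes) and 71 at 4 h (29.0%). At 4 h 19 reached 2-fold. The median at 4 h was then 0.80 for all members, 0.85, 0.81, 0.90, 0.69 and 0.84 for complexes I to V and 0.40 for the Ndufaf assembly factors. With quantile normalization 4 members at 2 h and 11 at 4 h were at least 1.5-fold higher. The 4 h median was 0.20 for all members and 0.24, 0.24, 0.19 and 0.10 for complexes I, II, III and V. Relative to all genes it was 0.15 for all members and 0.19, 0.19, 0.14, 0.11 and 0.048 for complexes I to V. With spike-in scaling 1 of 84 members at 2 h (2.67% of all genes) and 5 at 4 h (3.19%) were at least 1.5-fold higher. The members' share was below that of all genes at 2 h, and 0 members were 2-fold higher at 4 h. In the other direction 1 member at 2 h and 2 at 4 h were at least 1.5-fold lower, and 1 was at least 2-fold lower at 4 h. Shares of all genes past 2-fold, and of lower genes, are not given for these other scalings. The 4 h median was 0.17 for all members, 0.22, 0.19, 0.27, 0.067 and 0.21 for complexes I to V and -0.23 for the assembly factors. With suffixed probe sets left out, 61 members passed, 2 were at least 2-fold higher at 4 h, and Uqcrq was at -0.48 on another probe set. On the deposited scale, where 80 members passed, the assembly factors lay at -0.093 relative to all genes. The cause of the scaling differences was not tested.

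The median of complex III exceeded that of complex IV by 0.20 at 4 h, by 0.025 with quantile normalization and by -0.029 with suffixed probe sets left out. For all genes the 4 h median stood at 0.24 with equal medians, 0.05 with quantile normalization and -0.39 with spike-in scaling, beside -0.07 with equal trimmed means. For counts of members and medians of members and complexes, 261 recomputed values stayed within 1.5 times the count or moved a median by less than the SD between probe sets, and 38 did not. For single genes and the other medians, 3603 moved by less than that SD, 548 by more, and 1 (Uqcrq, above) was labelled as reversed. That label does not count every change of sign. Of the 84 members, 68 kept the sign of their 4 h ratio with quantile normalization and 69 with spike-in scaling. Leaving out a replicate was not possible, since each time has 1 array. No paired analysis was possible because no time point has labelled replicates. The planned comparison of c subunit proteins was not run.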

Other observations

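Ribosomal protein genes are set beside the respiratory chain genes here, without a test of the difference. The respiratory chain genes had a median log2 ratio of 0.34 at 2 h and 0.49 at 4 h, with 31 of 84 at least 1.5-fold higher at 4 h. The 76 mitochondrial ribosomal protein genes had medians of 0.23 and 0.19, with 17 that were 1.5-fold or more higher (11.5% of all genes) and 8 as far lower (25.5%) at 4 h. The 44 cytosolic ribosomal protein genes that passed had medians of 0.28 and 0.28, with 5 higher and 0 lower by that measure. Between 2 h and 4 h the median was 0.14 for the respiratory chain genes, -0.07 for mitochondrial and -0.01 for cytosolic ribosomal protein genes.

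The respiratory chain genes are short in the genome, with a median span of 7.50 kb against 23.2 kb over the 9712 genes with a known span (GRCm38.p6). Among the members, 57 spanned under 10 kb and had a median log2 ratio of 0.52 at 4 h. Another 22 spanned 10 to 30 kb with a median of 0.43, and 5 spanned over 30 kb with a median of 0.56. Over all genes the medians in these classes were 0.04, -0.06 and -0.13, and over the genes of the brightest of 4 signal bins 0.33, 0.28 and 0.23. The rank correlation of span with the 4 h ratio was 0.02 across the 84 members and -0.09 across all genes. These points share the same 3 arrays, and genes are not independent replicates. The assembly factor gene Ndufaf2 (106 kb, the longest member) and the complex I gene Ndufs4 (100.3 kb) were both above their 0 h signal at 4 h, at 0.95 and 0.56.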
